A study of Mus musculus and Mus musculus musculus x Mus musculus castaneus with 52 samples.

Results

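The interferon-gamma type genes Irf1, Gbp2, Gbp3, Irgm1, Ifi47, Psmb8, Psmb9, Tap1, B2m and H2-K1 were followed across 24 RNA sequencing libraries of mouse pluripotent stem cells. They are 10 of the 16687 genes in the table, and all 10 were found by symbol. They were chosen by a measured value: their change over 24 h without LIF, the cytokine that holds mouse embryonic stem cells undifferentiated in serum, differed between the female line F121 and the male line V6.5. The levels of F121 and V6.5 are therefore given as a description, with no test. Tests were made in libraries whose values did not enter that change. They were induced pluripotent stem cells (iPSCs), the CM embryonic stem cells (ESCs), and clones labelled Dusp9+/-. The genes were still chosen with earlier results of these data known, so these tests are not independent support for the set. The fit of the clones also held the F121 and V6.5 libraries, which took part in its cut on low levels.

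The iPSC lines, reprogrammed wild-type Mus musculus cells, were the female lines LV20, LV21 and LV22 and the male lines LV4, LV8 and LV16, each read undifferentiated at passage 7 (P7) and passage 13 (P13). The series calls the female lines XX at the early passage and XO, with 1 X chromosome lost, at the late passage. The CM lines were wild-type ESCs of a musculus by castaneus cross at P5, CM1 and CM2 female and CM3 and CM7 male. The withdrawal experiment held wild-type F121 (XX, musculus by castaneus), wild-type V6.5 (XY, Mus musculus) and a pair of female musculus by castaneus clones labelled Dusp9+/-, each at 0 h with LIF and after 24 h without it, in serum and without feeder cells. For these 8 libraries the labels list a technical repeat of each, which is not a separate culture, and F121 and V6.5 have 1 library at each time. The labels used here give no growth protocol for the iPSC and CM libraries. They name male wild-type feeder cells for the chromatin samples of the series, which are not analysed here.

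Interferon-gamma binds a receptor that signals through Janus kinases to the GAS element of genes such as Irf1. Irf1 is itself a transcription factor that binds the interferon-stimulated response element (ISRE) of a later wave of genes. Gbp2 and Gbp3 are guanylate-binding proteins, and Irgm1 and Ifi47 are immunity-related GTPases, all of which act against pathogens inside cells. Psmb8 and Psmb9 replace standard catalytic subunits to form the immunoproteasome, Tap1 is one subunit of the transporter that moves the cut peptides into the endoplasmic reticulum, and H2-K1 with B2m, its light chain, is the class I molecule that displays them. Pluripotent stem cells are known for low class I levels and for a weak answer to interferon.

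The 300-base RefSeq promoter windows of GRCm38.p6 (250 bases before the start site and 50 after) held the letters of one of these elements for 6 of the 10 genes. GAS was searched as TTCNNNGAA and ISRE as GAAA, any 2 bases and GAAA again, on both strands and with overlaps allowed. GAS letters were in 2 of the 10 genes, against 9.55% of 27025 genes with a window, and ISRE letters were in 4 of the 10, against 3.99%. The stretches before the start of these 6 genes are shown because they set Irf1 and Psmb8, which hold GAS letters, beside the GTPases and B2m, which hold ISRE letters. Each reads 5′ to 3′ along the gene's strand, with the matched letters in capitals.
Irf1: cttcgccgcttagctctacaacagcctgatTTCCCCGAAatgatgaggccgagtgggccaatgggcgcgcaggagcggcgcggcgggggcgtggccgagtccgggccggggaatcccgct
Psmb8: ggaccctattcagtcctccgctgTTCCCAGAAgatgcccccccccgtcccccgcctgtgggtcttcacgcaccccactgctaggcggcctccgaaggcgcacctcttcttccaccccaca
Gbp2: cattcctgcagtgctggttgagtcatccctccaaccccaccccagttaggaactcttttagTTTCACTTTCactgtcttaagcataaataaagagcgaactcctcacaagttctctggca
Gbp3: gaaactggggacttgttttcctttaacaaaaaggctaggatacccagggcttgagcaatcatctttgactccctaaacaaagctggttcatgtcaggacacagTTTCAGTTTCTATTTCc
Irgm1: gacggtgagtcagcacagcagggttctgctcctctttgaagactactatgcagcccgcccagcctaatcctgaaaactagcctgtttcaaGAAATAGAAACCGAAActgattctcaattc
B2m: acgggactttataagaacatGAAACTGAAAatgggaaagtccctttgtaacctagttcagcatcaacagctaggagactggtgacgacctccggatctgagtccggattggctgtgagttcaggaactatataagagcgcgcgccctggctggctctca
These stretches lie at chr11:53769894-53770013 (plus strand, Irf1), chr17:34198075-34198194 (plus, Psmb8), chr3:142620543-142620662 (plus, Gbp2), chr3:142559896-142560015 (plus, Gbp3), chr11:48871421-48871540 (minus, Irgm1) and chr2:122147528-122147686 (plus, B2m). In Gbp3 and in Irgm1 a pair of ISRE matches overlaps and prints as 1 run of capitals. The windows of Ifi47, Psmb9, Tap1 and H2-K1 did not hold these letters. A match describes letters in a window, and no binding was measured.

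Several of the genes are neighbours. Psmb9 (chr17:34182030-34187330), Tap1 (chr17:34187556-34197225) and Psmb8 (chr17:34198195-34201454) lie within 19.4 kilobases, with 225 bases between Psmb9 and Tap1, and H2-K1 (chr17:33996012-34000619) lies 181.4 kilobases away in the same histocompatibility region. Gbp3 (chr3:142560016-142573213) and Gbp2 (chr3:142620663-142638008) are 47.5 kilobases apart. Irgm1 (chr11:48865245-48871420), Ifi47 (chr11:49076587-49096987) and Irf1 (chr11:53770014-53778374) share a chromosome, and B2m is at chr2:122147687-122153082. All positions are of GRCm38.p6. The guanylate-binding genes and the H2 class I genes have near-identical relatives, so reads of Gbp2, Gbp3 and H2-K1 may be split with or taken from a relative, and the effect of castaneus alleles on counting was not tested.

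Libraries held 8309171 to 14245900 reads. All 10 pluripotency markers had reads in every library, at a summed level of 2553 to 4433 CPM. The level of X-linked genes, taken as the difference between the medians of 526 X-linked and 12869 autosomal genes on the log2 scale, was 0.36 in LV20 and 0.46 in LV22 at P7 and between -0.75 and -0.59 in the male lines at P7. LV21 at P7 stood apart from the other female lines at -0.27. At P13 LV20 and LV21 were at -0.66 and -0.75, and LV22 at -0.26, near LV21 at P7. This level describes X-linked RNA and not the number of X chromosomes. How far LV21 at P7 was XX and LV22 at P13 was XO was not tested. In the withdrawal libraries Dusp9, the X-linked phosphatase gene targeted in the clones, was at 6.93 in F121 at 0 h, 5.96 in clone 1 and 7.43 in clone 2. At 24 h it was at 7.84 in F121, 7.71 in clone 1 and 6.58 in clone 2, so the clone with the lower level was clone 1 at 0 h and clone 2 at 24 h. The clones are called by their label, and whether their numbers match between the times was not tested. Whether the reads fall outside the altered part of Dusp9 is not given.

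Levels are in log2 CPM, the log2 of reads scaled to a size set for each library, with a small added count. On this scale 1 unit is a 2-fold change and a gene with 0 reads is listed at -2.45. The size is not the sum of a library's reads. In V6.5 at 24 h, a library of 11442261 reads, 256 reads of B2m are 23.3 CPM. The scale is not corrected for transcript length, so levels are compared within a gene only. The group means of Gbp2 spanned 5.64 log2 units over the 12 groups, those of Gbp3 5.49 and those of Psmb8 4.76, while those of H2-K1 spanned 1.80. Gbp2 was highest in XY iPSCs at P7, at a mean of 6.94, and next in the clones labelled Dusp9+/- at 0 h (6.46) and 24 h (6.20) and in XX iPSCs at P7 (6.08), with overlapping ranges. It was lowest in V6.5, at 3.00 at 0 h and 1.30 at 24 h. Gbp3, Psmb8, Psmb9 and Tap1 each had their highest mean in the clones at 0 h, at 5.21, 3.63, 2.82 and 4.57.

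**Figure D1:**
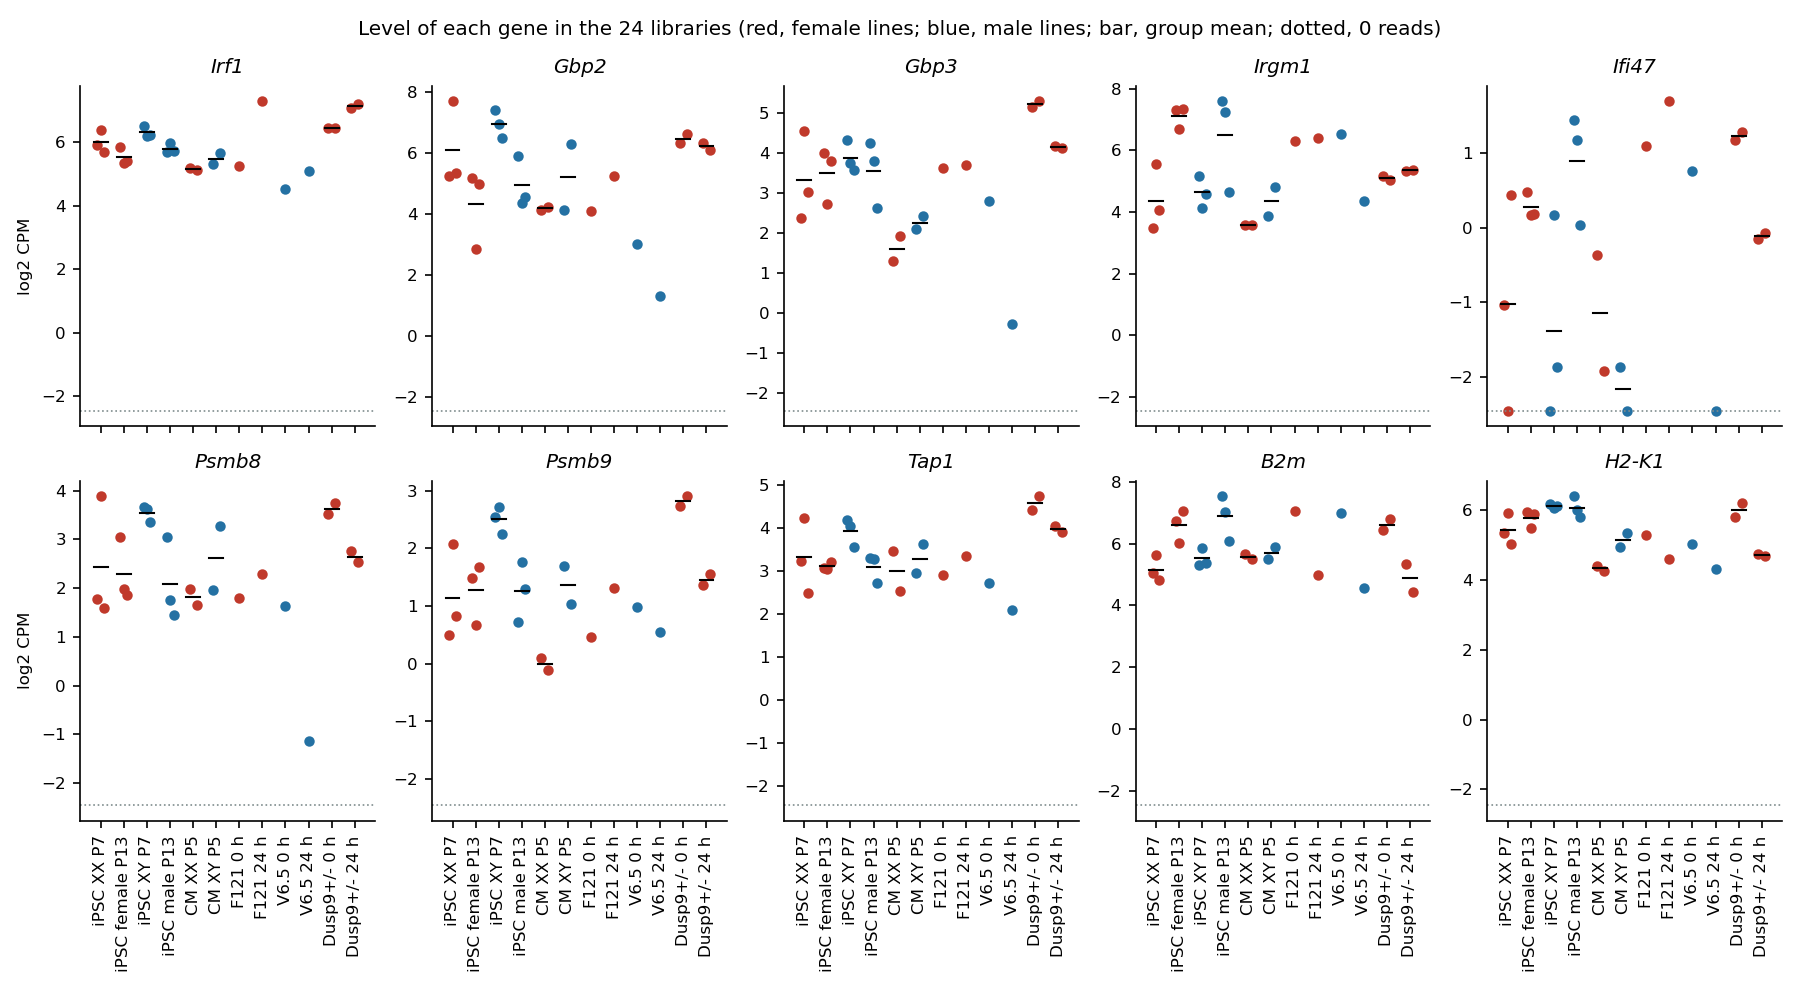
The level of each of the 10 genes (vertical axes, log2 CPM) in every library, arranged by group along the horizontal axis, with female lines in red, male lines in blue, group means as bars and the value for 0 reads dotted. At P13 Irgm1 lies between 6.70 and 7.58 in the 3 female lines and in 2 of 3 male lines, and Gbp2, Gbp3 and Psmb8 are lowest in V6.5 at 24 h.

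Irgm1 had its highest mean in the female iPSCs at P13 (7.11) and its lowest in the XX CM lines (3.57). B2m was highest in F121 and V6.5 at 0 h (7.04 and 7.00) and lowest in V6.5, the clones and F121 at 24 h. Irf1 was highest in F121 at 24 h (7.29) and in the clones at 24 h (7.14), whose ranges did not reach each other. Most neighbouring groups in these orders could not be told apart by their ranges: of 11 neighbouring pairs the ranges overlapped in 9 for B2m, in 8 each for Gbp2, Psmb8 and H2-K1, and in 5 for Irf1. Ifi47 had 0 to 36 reads per library. In the main fits it passed the filter of a mean of 1 CPM in the withdrawal libraries only. It was therefore tested there, and in the iPSC or CM lines only in some alternative fits.

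The choice itself rests on a large spread among the 10 genes. The F121 change minus the V6.5 change was 3.80 for Ifi47, 3.26 for Psmb8, 3.13 for Gbp3, 2.87 for Gbp2 and 2.29 for Irgm1, at ranks 3, 5, 6, 9 and 26 from the highest of 14156 genes. It was 1.48 for Irf1, 1.28 for Psmb9 and 1.06 for Tap1. For B2m it was 0.39, at rank 1975, and for H2-K1 it was 0.01, at rank 7052, so these values do not bear out the stated reason for choosing H2-K1. Genes outside the set reached similar values, with 2.41 for Gbp7 and 2.32 for Igtp. The value for Ifi47 depends on the small added count, since it had 15 reads in V6.5 at 0 h and 0 reads at 24 h.

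The first comparison asked how these genes differ between P7 and P13 in the female lines, which carry fewer X chromosomes at the late passage by the labels. Irgm1 and B2m were called higher (adjusted p under 0.05), and none of the 9 genes tested was called lower. Gbp2 and Irf1 had lower values at P13 in all 3 lines but were not called. In counts of genes from here on, rose and fell mean called higher and called lower. In the female lines 9% of 13978 genes were called changed, and 4.32% of all genes were called higher, beside 2 of 9 here, both higher.

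Irgm1, a regulator of the other immunity-related GTPases, had P7 values of 3.47 (LV20), 5.55 (LV21) and 4.06 (LV22), and P13 values of 7.31, 6.70 and 7.33 in that order. All P13 values lay above all P7 values, with the smallest step in LV21, which had started highest. The groups did not overlap in 3 of the 9 genes, Irgm1, B2m and Gbp2, where that held for 27.1% of all genes. The difference was 2.75 ± 0.62 (SE, n = 3 against 3), or 6.74-fold, with an adjusted p of 0.0190. B2m, the light chain shared by all class I molecules, was at 5.05, 5.62 and 4.81 at P7 and at 6.74, 6.03 and 7.05 at P13. It rose by 1.45 ± 0.33, or 2.72-fold, with an adjusted p of 0.0187, and again the groups did not overlap and LV21 moved least.

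Both calls were lost, with differences nearly as large, when a library of LV20 or LV22 was left out. Without any one of their 4 libraries no gene of the set was called, where 174 to 702 were called over all genes. For Irgm1 the differences were 2.31 to 2.66, with adjusted p between 0.0529 and 0.0871. For B2m they were 1.22 to 1.39, with adjusted p between 0.0622 and 0.0739.

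Gbp2, a guanylate-binding protein, had P7 values of 5.25 (LV20), 7.68 (LV21) and 5.33 (LV22) and P13 values of 5.16, 2.86 and 4.97. The groups did not overlap, and LV21 held both the highest value at P7 and the lowest at P13, a difference of -4.82, beside -0.08 in LV20 and -0.36 in LV22. The mean difference was -1.75 ± 0.65 with an adjusted p of 0.101. Irf1 was lower at P13 in each line (differences of -0.06, -1.06 and -0.30), with a mean difference of -0.47 ± 0.18 and an adjusted p of 0.104. Gbp3, Psmb8 and Psmb9 were higher at P13 in LV20 and LV22 and lower in LV21. Their mean differences lay between -0.12 and 0.19, and the sign of the mean turned in each when single libraries were left out. Tap1 was at 3.24, 4.24 and 2.49 at P7 and at 3.06, 3.04 and 3.22 at P13, close together at the later passage. H2-K1 differed by 0.34 ± 0.21 with an adjusted p of 0.312, and by 0.59 with an adjusted p of 0.0376 without LV21 at P7 (0.0376 to 0.732 over 13 alternatives).

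**Figure D2:**
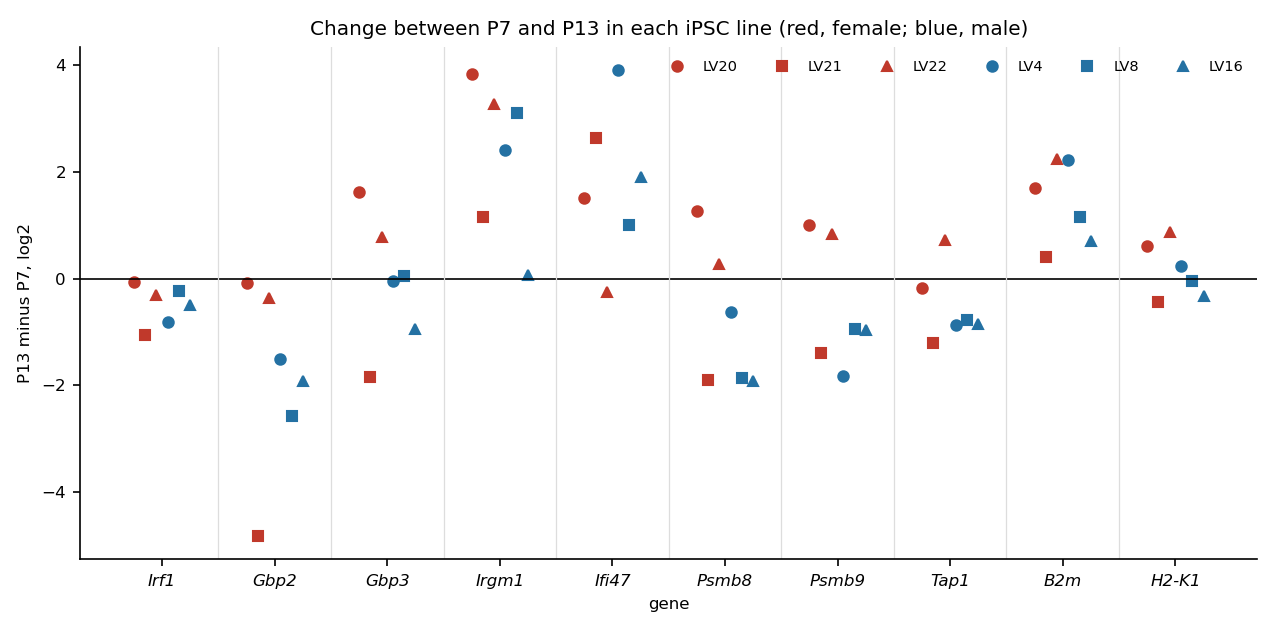
Difference between P13 and P7 (vertical axis, log2) for each gene (horizontal axis) in each female line (red) and male line (blue), 1 symbol per line. Irgm1 and B2m are above 0 and Gbp2 and Irf1 below 0 in all 6 lines, and LV21 lies below the other female lines in every gene but Ifi47.

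The second comparison set P13 against P7 in the male lines, which are XY at both passages. B2m rose there as well, and it was the 1 gene of 9 called, where 13% of all genes were called, 7.23% higher and 5.82% lower. It was at 5.31 in LV4, 5.86 in LV8 and 5.39 in LV16 at P7 and at 7.54, 7.01 and 6.10 at P13, a difference of 1.36 ± 0.33 (SE, n = 3 against 3), or 2.57-fold, with an adjusted p of 0.0163. That call was lost without LV4 or LV16 at P7 and without LV4 or LV8 at P13, with adjusted p from 0.0505 to 0.0866.

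Irgm1 was at 5.17, 4.14 and 4.59 at P7 and at 7.58, 7.23 and 4.66 at P13. LV16 at P13 stayed within the P7 range, and the difference of 1.86 ± 0.62 had an adjusted p of 0.0623. With line as a block it was 0.0442, and over 13 alternatives it ran from 0.00173 to 0.253. Without LV16 at P13 the difference was 2.78 with an adjusted p of 0.00173, in a fit where 15.7% of all genes were called.

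Gbp2, Irf1 and the peptide supply genes Psmb8, Psmb9 and Tap1 had lower values at P13 in all 3 male lines. Gbp2 was at 7.41 in LV4, 6.95 in LV8 and 6.47 in LV16 at P7 and at 5.90, 4.37 and 4.55 at P13, without overlap. Its difference of -2.00 ± 0.65 had an adjusted p of 0.0548, just short of the threshold. Psmb8, an immunoproteasome subunit, was at 3.66, 3.63 and 3.35 at P7 and at 3.04, 1.77 and 1.45 at P13, a difference of -1.46 ± 0.55 with an adjusted p of 0.0918. Psmb9, its partner subunit, was at 2.54, 2.72 and 2.25 at P7 and at 0.73, 1.77 and 1.29 at P13, a difference of -1.24 ± 0.45 with an adjusted p of 0.0791. Tap1 differed by -0.83 ± 0.35 and Irf1 by -0.51 ± 0.18, with adjusted p of 0.127 and 0.0694. The groups did not overlap in 6 of the 9 genes, where that held for 36.3% of all genes. When the 6 male libraries were fitted alone, 7 of 10 genes were called, where 16.7% of all genes were called. Irf1, Gbp2, Psmb8, Psmb9 and Tap1 were lower and Irgm1 and B2m higher. Ifi47 passed the filter in that fit and was not called.

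Gbp3 and H2-K1 did not follow either direction in the male lines, with differences of -0.32 ± 0.52 and -0.04 ± 0.21. Ifi47 had 0, 8 and 1 reads in LV4, LV8 and LV16 at P7 and 26, 20 and 12 reads at P13. In the female lines it had 3, 0 and 14 reads at P7 and 12, 10 and 8 at P13.

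Markers of other cells moved with these differences. In the female lines 9 of 19 fibroblast or feeder markers tested and 3 of 9 leukocyte markers rose with passage and none fell, and the summed fibroblast level was 414 to 694 CPM at P7 and 768 to 1575 CPM at P13. In the male lines 14 of 19 and 7 of 9 rose, and the sum was 454 to 511 CPM at P7 and 778 to 2090 CPM at P13. Leukocyte markers summed to 115 to 178 CPM over the 6 P7 libraries and to 188 to 461 CPM at P13, and no marker of either list was at 0 reads in an iPSC library. Of 4 markers of male cells 3 rose in the female lines, to a sum of 8.59 to 21.4 CPM, far below the 144 to 184 CPM of the male lines at P13. The part of these cells in the result was not tested, and in bulk RNA fewer cells of a type and less RNA per cell cannot be told apart.

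**Figure D3:**
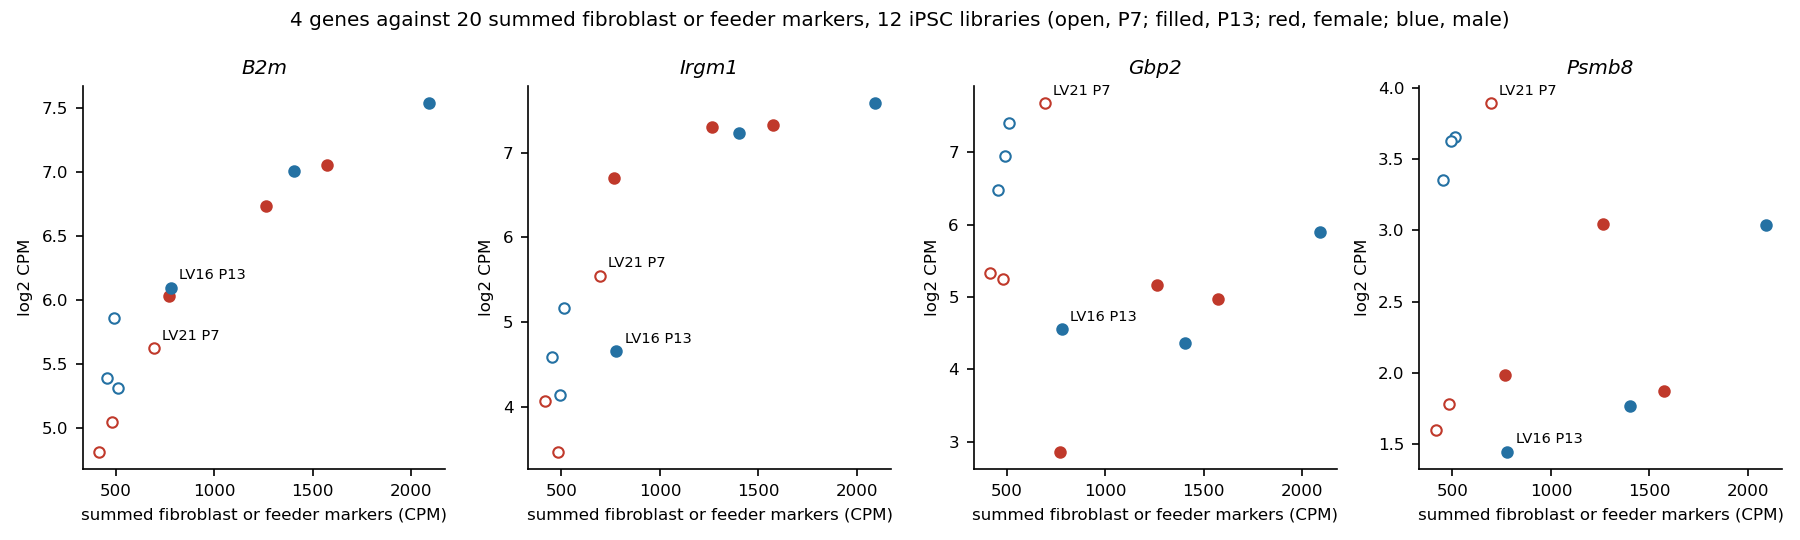
Level of B2m, Irgm1, Gbp2 and Psmb8 (vertical axes, log2 CPM) against the summed level of 20 fibroblast or feeder markers (horizontal axes, CPM) in the 12 iPSC libraries, with P7 open and P13 filled, female red and male blue. B2m is at its highest, 7.54, in LV4 at P13, where the marker sum is also highest, while Gbp2 and Psmb8 are at their highest in LV21 at P7.

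The order of B2m at P13 was that of the fibroblast sum in the 6 lines, from LV21 (6.03 at 768 CPM) and LV16 (6.10 at 778 CPM) to LV4 (7.54 at 2090 CPM). LV21 and LV16 also held the 2 lowest P13 values of Irgm1 (6.70 and 4.66, against 7.23 to 7.58 in the other lines), Gbp3 (2.70 and 2.61, against 3.79 to 4.25), Tap1 (3.04 and 2.71, against 3.06 to 3.31) and H2-K1 (5.48 and 5.79, against 5.88 to 6.39). In Irf1, Gbp2, Psmb8 and Psmb9 another line was among the 2 lowest at P13. It was LV22 in Irf1 (5.42), LV8 in Gbp2 (4.37) and Psmb8 (1.77), and LV4 in Psmb9 (0.73). Gbp2 and Psmb8 at P7 were high in LV21 and the male lines, at sums of 454 to 694 CPM, below every P13 sum.

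The other interferon genes also differed by group. Of 19 type I interferon-stimulated genes tested, 10 rose in the female and 7 in the male lines and none fell, with medians of 1.81 and 1.49. These include Ifit1, which binds foreign RNA, with differences of 3.79 and 3.08, and Irf7, the transcription factor that amplifies the type I response, with 5.76 in the female lines. Of 7 other interferon-inducible GTPases tested, Tgtp1 was the 1 called in each sex, higher by 3.56 ± 0.53 and 3.39 ± 0.53. Among 16 other genes of class I presentation 1 rose in the female lines, the non-classical class I gene H2-T23 (2.43 ± 0.68), and 2 rose in the male lines, the chaperones Pdia3 (0.48 ± 0.11) and Calr (0.41 ± 0.10). Of 13 genes of interferon-gamma signalling, 3 rose and 1 fell in the female lines and 2 rose and 2 fell in the male lines. Socs3, a feedback inhibitor of cytokine receptors that LIF induces, fell by 1.11 in the female and 1.31 in the male lines. Nlrc5, the transactivator of class I genes, rose in the male lines by 1.89 ± 0.56. Ctss, a protease of class II presentation, rose in both, by 3.09 and 2.73, as the 1 called of 6 class II genes. Of 7 constitutive proteasome genes, Psme4 alone was called, lower by 0.23 in the male lines (-0.23 ± 0.06).

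Over the 9 genes tested the median difference was 0.15 in the female and -0.51 in the male lines, beside -0.00205 and -0.00293 over all genes. The female change minus the male change was above 0 for all 9, from 0.04 for Irf1 to 1.39 ± 0.63 for Psmb9, and for 6 to 9 of them with 1 library left out, where Irf1, Gbp2, Irgm1 or B2m turned. No gene of the set and none of 13978 genes was called by limma (0%) or by voom. By an unadjusted p under 0.05, 1 of the 9 was below it, Psmb9 at 0.0449 with an adjusted p of 0.548. With line as a block 11 genes were called, and without LV21 at P7 145, none of them of the set.

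At P7 the comparison of XX with XY iPSCs asked whether the second X chromosome goes with other levels of these genes. None of the 9 was called by limma or by voom, where limma called 4.78% of all genes (3.05% higher in XX cells and 1.72% lower), and 2 had an unadjusted p under 0.05. All 9 had lower means in the XX lines, though Irgm1 turned to 0.17 higher without LV20 at P7. H2-K1, the class I heavy chain, was at 5.34, 5.92 and 5.02 in LV20, LV21 and LV22 and at 6.16, 6.04 and 6.12 in LV4, LV8 and LV16. The difference of -0.68 ± 0.21 (SE, n = 3 against 3) had an adjusted p of 0.0736, and the groups did not overlap. Psmb9 was at 0.49, 2.08 and 0.83 in the XX lines, below all 3 male lines, with a difference of -1.37 ± 0.45 and an adjusted p of 0.0936. These 2 of 9 did not overlap, where 25.8% of all genes did not.

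LV21 at P7, whose X-linked level was lowest of the female lines, held the highest value of the female lines in every one of the 9 genes. In Gbp2, Gbp3, Irgm1, Psmb8 and Tap1 it lay above all 3 male lines, at 7.68, 4.54, 5.55, 3.89 and 4.24. Without it 4 genes were called lower in XX cells, where 12.4% of all genes were called: H2-K1 (-0.93, adjusted p of 0.00392), Psmb9 (-1.84, 0.0128), Psmb8 (-1.86, 0.0145) and Tap1 (-1.06, 0.0274). Over 12 alternatives the adjusted p ran up to 0.308, 0.297, 0.628 and 0.834 in these genes. The fibroblast sums of the sexes overlapped at P7, and no fibroblast or leukocyte marker was called. The summed level of pluripotency markers was 4397 CPM in LV20, 4164 CPM in LV22 and 2879 CPM in LV21, against 2795 to 3279 CPM in the male lines, and that of endothelial markers 181 and 177 CPM in LV20 and LV22 and 89.8 CPM in LV21, against 92.5 to 149 CPM. Their part in the result was not tested. Of the other lists, Stat2 alone was called among 13 signalling genes, lower in XX cells by 0.72 (-0.72 ± 0.17, adjusted p of 0.0282). None was called among 16 other class I genes, 7 GTPases, 6 class II genes, 7 constitutive proteasome genes and 19 type I genes.

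**Figure D4:**
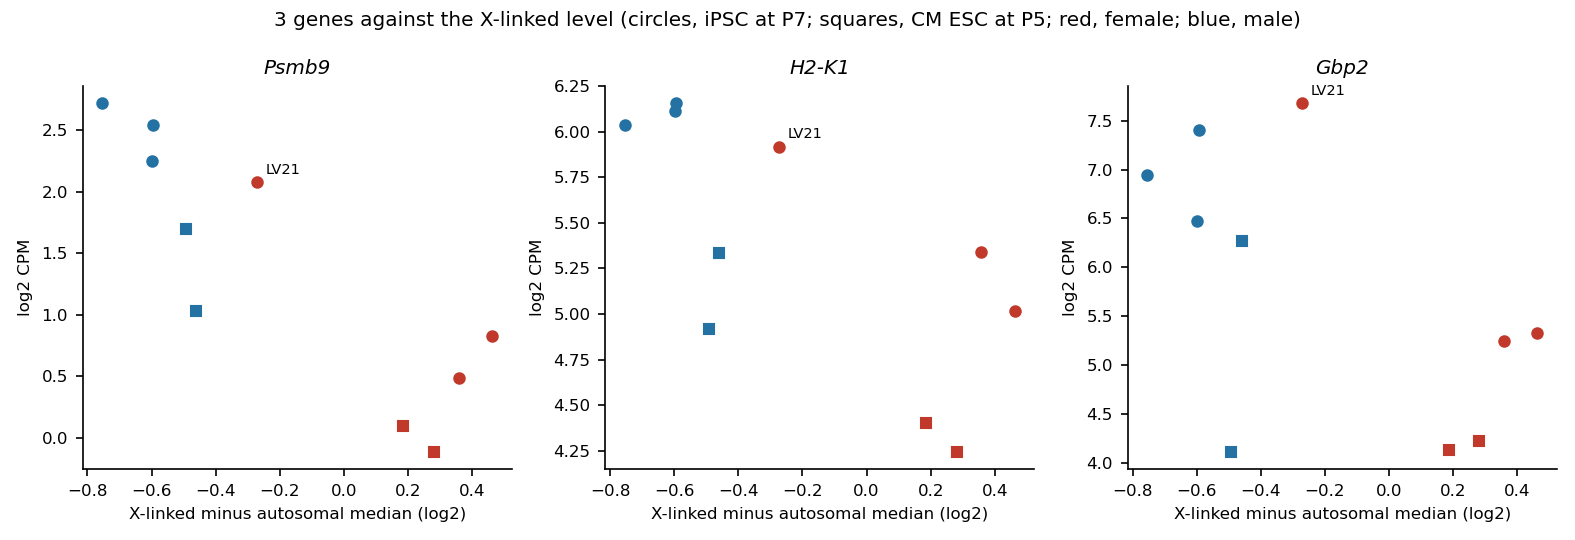
Level of Psmb9, H2-K1 and Gbp2 (vertical axes, log2 CPM) against the X-linked level (horizontal axes, X-linked minus autosomal median, log2) in iPSCs at P7 (circles) and CM ESCs at P5 (squares), female red and male blue. LV21 lies between the sexes on the horizontal axis, at -0.27, and near or above the male lines in all 3 genes.

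At P13 the question was whether the lines still differed by sex. None of the 9 genes was called by limma or by voom, where limma called 0.0286% of all genes, and none had an unadjusted p under 0.05. Differences ran from -0.61 ± 0.65 for Gbp2 to 0.62 ± 0.62 for Irgm1, and the groups overlapped in all 9, where 7.24% of all genes did not overlap. Both ends turned in sign when a library was left out, Gbp2 to 0.13 without LV21 at P13 and Irgm1 to -0.30 without LV16 at P13.

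The XX and XY CM ESCs at P5 gave another comparison of female with male lines, 2 against 2 and of another genetic background. All 9 genes again had lower means in the XX lines, though Gbp2, Tap1 and B2m turned to 0.063, 0.06 and 0.082 higher without CM7, and Tap1 to 0.18 without CM2. Of the 9, 1 was called, where 12% of all genes were called, 6.97% higher and 5% lower in XX cells. H2-K1 was at 4.40 in CM1 and 4.24 in CM2 and at 4.92 in CM3 and 5.34 in CM7. The difference was -0.80 ± 0.18 (SE, n = 2 against 2), or 1.75-fold, with an adjusted p of 0.0180. It was lost without CM1 (adjusted p of 0.131), without CM2 (0.210) and with no filter on low values (0.0793). The range over 9 alternatives was 1.79e-06 to 0.210.

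Psmb9 was at 0.10 and -0.11 in CM1 and CM2 and at 1.69 and 1.03 in CM3 and CM7, which are 9, 9, 33 and 24 reads. Its difference of -1.37 ± 0.56 was of the size seen in the iPSCs and had an adjusted p of 0.145. Irgm1 was at 3.56 and 3.58 in the XX lines and at 3.87 and 4.81 in the XY lines, with a difference of -0.77 ± 0.29 and an adjusted p of 0.114. The groups did not overlap in 5 of 9 genes, where that held for 55.9% of all genes. CM7 held the highest Gbp2 (6.27 against 4.11 to 4.22 in the other 3 lines) and the highest Psmb8 (3.28 against 1.66 to 1.97). Without CM3, which leaves CM7 alone in the male group, 5 genes were called lower, where 24.7% of all genes were called.

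Of 15 other class I genes tested, Psmb10, the remaining catalytic subunit of the immunoproteasome, was the 1 called, lower in XX lines by 1.18 (-1.18 ± 0.17, adjusted p of 0.00160), and the median of the 15 was -0.72. Fibroblast sums overlapped between the sexes, at 882 and 1002 CPM in XX and 875 and 1096 CPM in XY lines, while leukocyte sums were 152 and 167 against 114 and 106 CPM, with 1 of 9 markers, Laptm5, higher in XX lines. Pluripotency markers summed to 4433 and 4355 CPM in XX and 3754 and 3100 CPM in XY lines, and endothelial markers to 131 and 134 against 98.6 and 64.4 CPM. Their part in the result was not tested. H2-Eb1, a class II chain, was higher in the XX lines (2.84 ± 0.63), the 1 called of 4 class II genes, and type I genes were called in both directions, 2 higher and 2 lower of 14.

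After 24 h without LIF, Irf1 was called higher and 6 of the 10 genes were called lower in the clones labelled Dusp9+/-. Among the 6 is Ifi47, which passed the filter through libraries where it was high. Over all genes 26.1% were called, 12.9% higher and 13.1% lower. Irf1 was at 6.46 in each clone at 0 h and at 7.09 and 7.20 at 24 h, a rise of 0.69 ± 0.09 (SE, n = 2 against 2), or 1.61-fold, with an adjusted p of 0.00847. It was the 1 gene of the set called higher. Irgm1 was higher at 24 h as well, by 0.24 ± 0.11, with an adjusted p of 0.136.

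Both chains of the class I molecule fell. B2m was at 6.44 and 6.78 in clones 1 and 2 at 0 h and at 5.34 and 4.42 at 24 h, and fell by 1.73 (-1.73 ± 0.30, 3.31-fold, adjusted p of 0.0143). H2-K1 was at 5.80 and 6.18 and then at 4.72 and 4.68, and fell by 1.29 (-1.29 ± 0.15, adjusted p of 0.00683). Both immunoproteasome subunits fell too. Psmb9 went from 2.73 and 2.91 to 1.36 and 1.55 (-1.36 ± 0.23, adjusted p of 0.0133) and Psmb8 from 3.52 and 3.74 to 2.76 and 2.53 (-0.99 ± 0.21, adjusted p of 0.0243). Tap1 was at 4.41 and 4.74 and then at 4.03 and 3.90, a difference of -0.61 ± 0.18 that missed the threshold at an adjusted p of 0.0541.

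Among the GTPases, Gbp3 went from 5.13 and 5.28 to 4.17 and 4.12 and fell by 1.06 (-1.06 ± 0.15, adjusted p of 0.00954). Ifi47 fell by 1.34 (-1.34 ± 0.26, adjusted p of 0.0186), from 24 and 28 reads to 9 and 9. These are 2.07 and 2.25 CPM at 0 h and 0.71 and 0.77 CPM at 24 h. It thus passed the filter of 1 CPM through libraries where it was high, and its fall is no support for the set. Gbp2 and Irgm1 were not called. Gbp2 was at 6.30 and 6.63 at 0 h and at 6.31 and 6.10 at 24 h, and Irgm1 at 5.17 and 5.03 and then at 5.33 and 5.36.

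The groups did not overlap in 9 of 10 genes, where 68.5% of all genes did not. With clone as a block 3 genes of the set were called, Irf1, Gbp3 and H2-K1, where 6.53% of all genes were called, and adjusted p was 0.0501 for B2m, 0.0539 for Psmb9, 0.0668 for Ifi47 and 0.0806 for Psmb8. Over 12 alternatives the highest adjusted p of these 4 genes was 0.0501, 0.0794, 0.0909 and 0.155, and that of H2-K1 was 0.0398. Leaving out a clone at 24 h leaves 1 sample in that group. The signs of all 10 genes then stayed as in the main fit, while fewer genes were called, both in the set and over all genes.

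**Figure D5:**
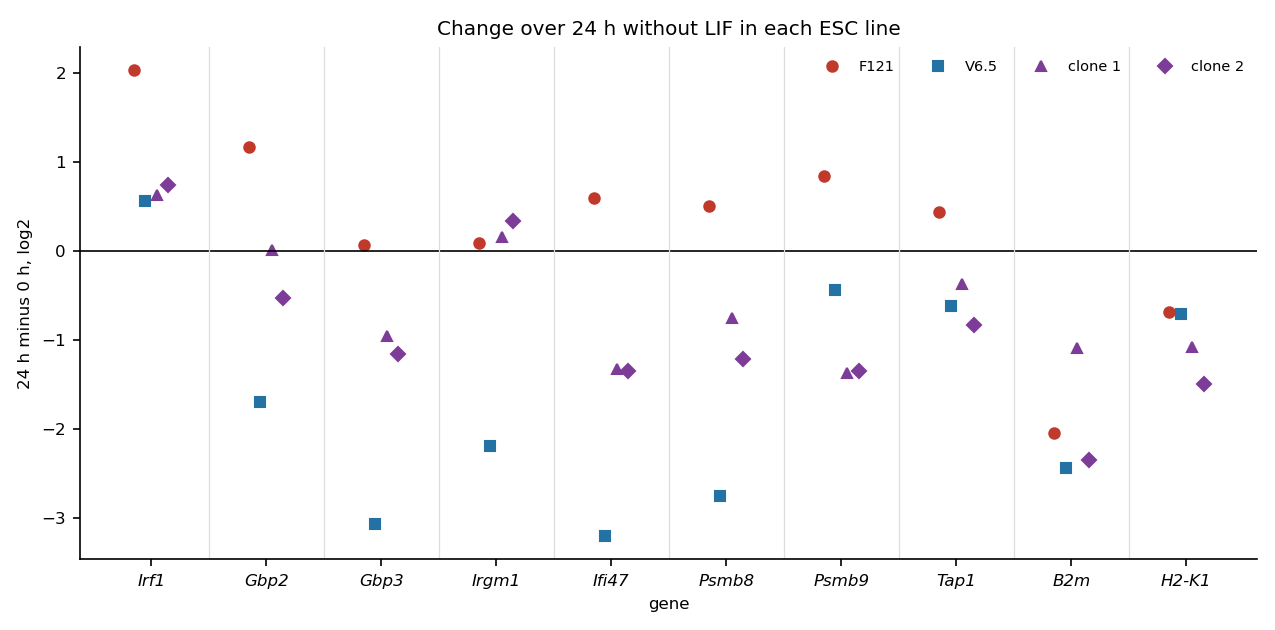
Difference between 24 h without LIF and 0 h (vertical axis, log2) for each gene (horizontal axis) in F121 (red), V6.5 (blue) and clones 1 and 2 labelled Dusp9+/- (purple), 1 library per time. The clones are matched between the times by label number. B2m and H2-K1 are below 0 in all 4 lines, while Gbp2, Gbp3, Ifi47 and Psmb8 differ most between F121 and V6.5, the difference by which the genes were chosen.

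As a description, the changes of both clones, matched by label number, lay between those of F121 and V6.5 in Irf1, Gbp2, Gbp3, Ifi47 and Psmb8. In Psmb9 (-1.37 and -1.35, against 0.84 in F121 and -0.45 in V6.5) both clones lay below both wild-type lines. So they did in H2-K1 (-1.08 and -1.50, against -0.69 and -0.71), while in Irgm1 both lay above. In Tap1 clone 2 lay below both wild-type lines, and in B2m clone 1 lay above both. Irf1 was higher at 24 h in all 4 lines, from 5.26 to 7.29 in F121 and from 4.53 to 5.09 in V6.5. Gbp2 went from 4.09 to 5.25 in F121 and from 3.00 to 1.30 in V6.5. Gbp3 went from 3.62 to 3.68 in F121 and from 2.79 to -0.29 in V6.5, and Psmb8 from 1.80 to 2.30 and from 1.63 to -1.13. Irgm1 was at 6.29 and 6.38 in F121 and at 6.54 and 4.34 in V6.5. B2m was lower at 24 h in both, from 7.04 to 4.99 and from 7.00 to 4.56. The set's median difference was 0.47 in F121, -1.95 in V6.5, -0.86 in clone 1 and -1.19 in clone 2, with the clones matched by label number.

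With LIF the clones also stood apart from F121, whose levels the choice used, so no test is given. Gbp2 was at 6.30 and 6.63 in the clones against 4.09 in F121, Gbp3 at 5.13 and 5.28 against 3.62, Psmb8 at 3.52 and 3.74 against 1.80, Psmb9 at 2.73 and 2.91 against 0.47 and Tap1 at 4.41 and 4.74 against 2.90. Irgm1 was lower in the clones, at 5.17 and 5.03 against 6.29. The fibroblast sum was 212 and 418 CPM in the clones and 1185 CPM in F121 at 0 h.

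Markers moved with the 24 h comparison as well. In the clones 4 of 19 fibroblast markers and 7 of 9 leukocyte markers fell, and the leukocyte sum went from 264 and 309.6 CPM to 115 and 91.5 CPM. The fibroblast sum went from 212 to 414 CPM in clone 1 and from 418 to 244 CPM in clone 2, so the ranges of the 2 times overlapped. In F121 it went from 1185 to 468 CPM and in V6.5 from 1283 to 417 CPM. Markers of male cells summed to 6.89 and 11.97 CPM in clones 1 and 2 at 0 h and to 5.0 and 1.63 CPM at 24 h. None of these 4 markers was called. In F121, also female, their sum went from 18.5 to 5.42 CPM. The part of these cells was not tested. Of 10 pluripotency markers 4 fell and 1 rose in the clones, with Nanog lower by 1.28 (-1.28 ± 0.10).

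Of 20 type I interferon genes 17 fell in the clones and none rose, with a median of -1.91, led by Usp18, which trims ISG15 from proteins (-4.23 ± 0.24), and Irf7 (-3.96 ± 0.23). Of 13 signalling genes 7 fell, among them Socs3 (-3.00 ± 0.12), Stat2 (-1.24 ± 0.14) and Irf9 (-1.25 ± 0.16), which acts with Stat2 in the complex that binds ISRE. Of 17 other class I genes 5 fell and 1 rose, with H2-D1, another classical heavy chain, lower by 1.31 (-1.31 ± 0.21). Of 7 other GTPases, Gbp7 was the 1 that fell (-1.46 ± 0.20). Of 4 class II genes 2 fell. Among 7 constitutive proteasome genes none fell and Psme3 rose by 0.36 ± 0.07.

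Across the 12 iPSC libraries, the genes outside the set whose level followed the mean of the 9 tested genes most closely were Tpm1 (Pearson r of 0.957), Tapbp (0.956), Nsg2 (0.951), Psme2 (0.939), Cnn2 (0.914), Erap1 (0.911), Flt1 (0.904), Tagln (0.898), Tgfb2 (0.897) and Marcks (0.896), of 13978 genes compared. Tapbp bridges Tap and class I, Psme2 is a subunit of the interferon-inducible proteasome activator and Erap1 trims class I peptides. Tpm1, Cnn2 and Tagln are actin-binding proteins, and Tagln is also on the list of fibroblast or feeder markers. The 12 libraries are 6 lines at 2 passages, so they share lines and the marker levels given above, and these values describe likeness only.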

How the data were processed

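RNA was sequenced single-end after TRIzol extraction and a stranded mRNA kit, per the labels. Per the submitters' processing notes, the tools were STAR 2.5.3a, featureCounts and edgeR, and the builds named are mm10 and GRCm38. Their roles are not stated. The counting strand, and whether technical repeats were pooled into the 24 columns, are not given in the sources used here. The authors deposited log2 CPM values, a unit other than counts, for 16687 genes. On the linear scale 100.0% of values are a floor of 0.183 CPM plus whole reads, within 0.01 read, so reads and depth (8309171 to 14245900) were recovered. The added count understates differences of low genes.

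Log2 values were fitted unchanged with limma 3.58.1 in R 4.3.3 (lmFit, eBayes with a trend) over genes averaging 1 CPM or more, two-sided, with Benjamini-Hochberg adjustment over all of them. A gene is called at an adjusted p under 0.05. The 12 iPSC libraries shared 1 fit, the 4 CM libraries another and the 8 withdrawal libraries the third, whose spread comes from the clones alone. Fits were tested on simulated data. The same lines at both passages pair the samples. The clones at both times do so only if their numbers match, which was not tested. Deviations of the same line from its group means correlated by -0.04 to 0.11 and those of the clones by -0.37. Alternatives were log2(CPM + 1), log2(CPM + 4), no filter, equal medians, voom on the recovered reads, a replicate block, groups fitted alone, and each library left out.

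The 10 genes and all gene lists were chosen with earlier results of these data known. All 10 are named in each comparison, with up to 4 called genes of each other list and the 10 genes most like the set. Listed genes not analysed here include Ifng, Ciita, Gbp5, Gbp6, Gbp8, Gbp10, Gbp11, Tgtp2, Gm4951 and H2-Aa. Some other items are not reported here. Promoter sequences are RefSeq's for GRCm38.p6, with 13 windows matched to the 10 genes by symbol. Chromatin samples are not analysed here.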

Additional observations from a re-analysis of the deposited data

Results flagged for a closer look

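After 24 h without LIF, 6 genes had changes of opposite sign in the clones labelled Dusp9+/- and in a wild-type line. This held in each clone against the single library pair of that line. For Gbp3 the F121 change was only 0.06, or 1.04-fold. The F121 and V6.5 changes were used to choose the genes, and none of these differences was tested. Against F121 the mean change of the clones was lower by 2.20 in Psmb9 (difference -2.20, from -1.36 against 0.84), and the difference was -1.94 in Ifi47 (-1.34 against 0.60), -1.49 in Psmb8 (-0.99 against 0.50), -1.12 in Gbp3 (-1.06 against 0.06) and -1.04 in Tap1 (-0.61 against 0.44). Against V6.5 it was 2.44 in Irgm1 (0.24 against -2.20).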

How the results depend on the processing

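Leaving out 1 library at a time moved the number of genes of the set called from 0 to 3 in the female lines between passages, 0 to 2 in the male lines, 0 to 4 for XX against XY at P7, 0 to 5 in the CM lines and 2 to 8 in the clones. Over all genes the ranges were 174 to 2079, 429 to 2198, 44 to 1727, 281 to 3496 and 851 to 4391, and 0 to 145 for the difference in change between the sexes. Where a library left an arm with 1 sample, that sample is assumed to vary like the others.

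Other settings called 3 (log2(CPM + 4)), 2 (replicate block) and 7 (groups fitted alone) genes of the set in the male lines, where 1 was called. Over all genes these settings called 1869, 2096 and 2329, beside 1823 in the main fit. In the CM lines they called 0 with no filter (769 over all genes, instead of 1690). The planned fit with F121 and V6.5 at 0 h was not run, since the choice of the genes used those libraries. In the clones the replicate block called 3, and 936 over all genes instead of 3735. Crossing the clone numbers in the block, chosen after seeing the data, called 6280 genes and 8 of the set. Voom and the groups fitted alone also called 8 of the set, and 3668 and 3750 over all genes. Groups fitted alone called 436 genes instead of 1258 in the female lines and 428 instead of 668 for XX against XY at P7, where no filter called 440. The replicate block called 11 genes for the difference in change between the sexes, none of the set, and beyond what is given here and in the text it changed no call of the set.

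Direction turned with 1 library left out in 13 differences, none of them called: from -0.28 to 0.81 in Gbp3, -0.54 to 0.61 in Psmb8, -0.17 to 0.62 in Psmb9 and -0.63 to 0.24 in Tap1 (female lines), -0.67 to 0.15 in Gbp3 and -0.21 to 0.089 in H2-K1 (male lines), -0.87 to 0.17 in Irgm1 (XX against XY at P7), -1.02 to 0.13 in Gbp2 and -0.30 to 1.17 in Irgm1 (P13), -0.13 to 0.23 in Irf1 (difference in change), and -2.10 to 0.063 in Gbp2, -0.75 to 0.18 in Tap1 and -0.30 to 0.082 in B2m (CM lines). The causes were not tested. Of 64 differences 11 were called, and 1 of them, H2-K1 in the clones, was called in every setting run. For 14 of the 64, all uncalled differences between the sexes at P13 or in the change with passage, only calls and signs were followed, so they are not among the 13. The 2 or 3 lines per group, and fewer than 40 reads of Ifi47 in any library, limit what could be seen.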
